A study of Mus musculus with 6 samples.

Results

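A set of 10 genes of adipocytes and their lipid droplets was followed in RNA from newborn mouse calvaria, the flat bone of the skull roof. They were *Lep*, *Adipoq*, *Plin1*, *Cidec*, *Fabp4*, *Retn*, *Pparg*, *Lpl*, *Cfd* and *Ucp1*, taken as the rows of the count tables with exactly these names, and they made up 10 of the 44556 genes listed. Of these, 8 passed the filter on low counts and were among the 15600 genes tested, and *Lep* and *Retn* did not pass. Messenger RNA of the parietal bone of C57BL/6 newborns was sequenced from 3 OsxCre mice and from 3 OsxCre;Stat3fl/fl littermates. Both genotypes carry Cre recombinase under the *Osx* (*Sp7*) promoter, which is active in pre-osteoblasts. The second also carries *Stat3* alleles with loxP sites around some of the exons. These exons are removed in cells where this promoter is or was active. Whether adipocytes or other cells of the bone arise from such cells was not tested here. There was no group without Cre, so an effect of Cre alone cannot be told apart from the baseline.

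A white adipocyte stores triglyceride in a single large lipid droplet coated by perilipin 1 (*Plin1*) and enlarged by *Cidec*, takes up fatty acids released by lipoprotein lipase (*Lpl*), carries them on the binding protein *Fabp4*, and secretes the hormones leptin (*Lep*), adiponectin (*Adipoq*), resistin (*Retn*) and adipsin (*Cfd*). The nuclear receptor *Pparg* drives this programme together with C/EBP factors. Brown adipocytes, which are plentiful in newborn mice, share most of it, have many small droplets, and burn fatty acids to make heat through *Ucp1*, the uncoupling protein of their mitochondria. STAT3 is the transcription factor activated by the leptin receptor and by cytokines of the IL-6 family.

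The libraries held between 8193651 and 12080044 counts, and every library labelled OsxCre;Stat3fl/fl was smaller than every OsxCre library. Values below are CPM, counts divided by the TMM-scaled library total and brought to a common size, and a floor of 3 counts corresponded to between 0.252 and 0.368 CPM. The targeted gene was not lower after scaling in the libraries labelled OsxCre;Stat3fl/fl. *Stat3* had 1575, 1357 and 1685 counts in OsxCre libraries 1, 2 and 3 and 1273, 1262 and 1328 in those labelled OsxCre;Stat3fl/fl. Scaled for depth, these were 150, 135 and 141 against 153, 155 and 155 CPM, every one of the second group above every one of the first, with a log2 difference of 0.12 (SE 0.07, edgeR adjusted p = 0.442). A count over the whole gene in mixed tissue does not show whether the floxed exons were lost, and the genotypes are therefore named as labelled. *Xist*, the transcript that coats the inactive X chromosome, had between 7333 and 12392 counts in the 6 libraries, whereas the study's text describes male newborns.

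The level of the 10 genes spanned a wide range. Divided by exon length, *Fabp4* was the most abundant, with a mean over the 6 libraries of 1534 CPM per kilobase, followed by *Ucp1* at 382, *Lpl* at 91.9, *Adipoq* at 46.3, *Plin1* at 36.6, *Cfd* at 31.7, *Cidec* at 27.5, *Pparg* at 10.3, *Retn* at 0.726 and *Lep* at 0.178 CPM per kilobase. From *Fabp4* down to *Pparg*, the ranges of neighbours in this order overlapped over the 6 libraries. The ranges of *Pparg* and *Retn* did not overlap, and neither did those of *Retn* and *Lep*. Each library therefore held the RNA of adipocyte genes, with the brown adipocyte marker *Ucp1* above the adipokines on average per length. Not all of it need come from adipocytes. Capillary endothelium and macrophages also make *Fabp4*, muscle also makes *Lpl*, and macrophages and osteoclasts also make *Pparg*. The osteoblast genes *Col1a1* and *Spp1* had means of 13055 and 2173 CPM in the OsxCre libraries.

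**Figure D1:**
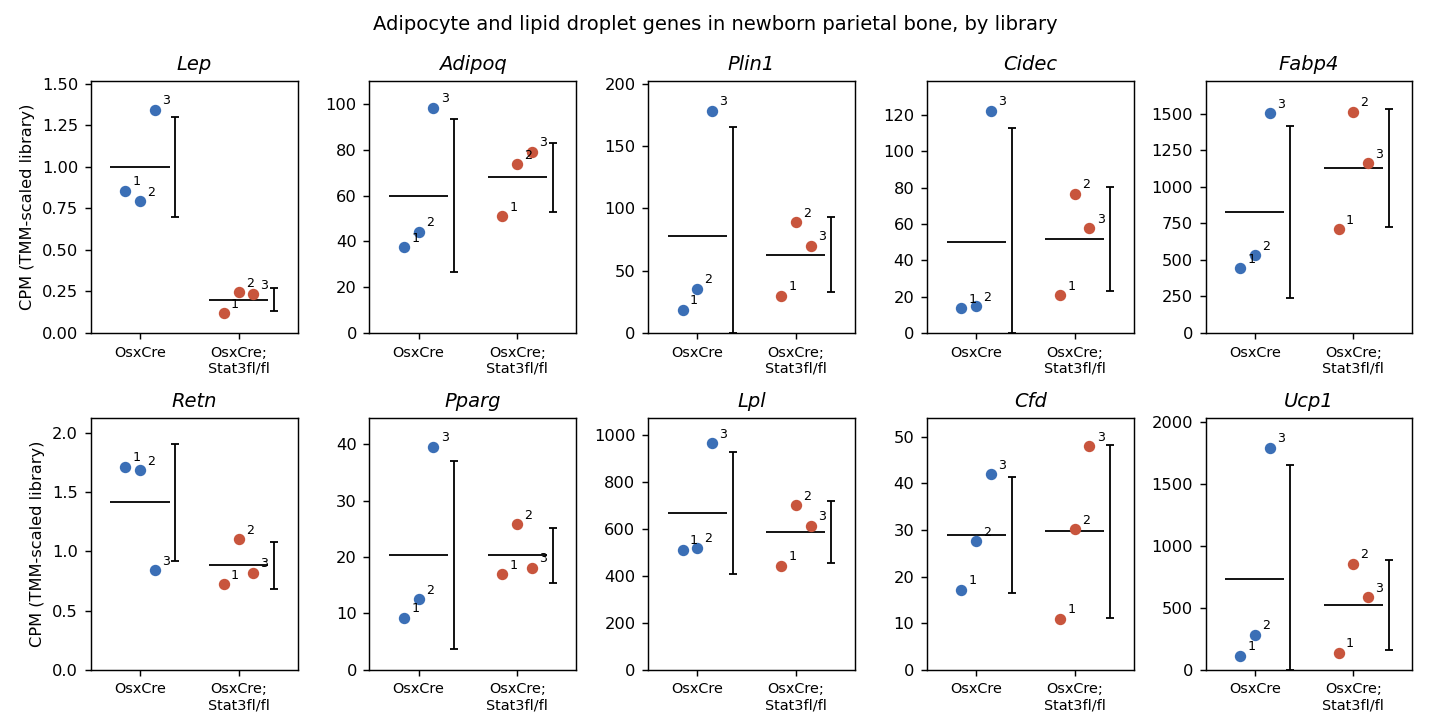
Level of each of the 10 adipocyte genes in CPM on a linear axis that starts at 0, one point per library, with the mean of the 3 libraries of a genotype as a line and the SD as a bar that is cut at 0. OsxCre library 3 is the highest point for Ucp1 (1793 CPM), Plin1 (178 CPM) and Cidec (122 CPM), and only for Lep do the genotypes not overlap.

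Leptin, the hormone that reports the size of fat stores, was the only one of the 10 genes whose libraries did not overlap between genotypes. *Lep* stood at 0.856, 0.793 and 1.34 CPM in the OsxCre libraries and at 0.120, 0.245 and 0.234 CPM in those labelled OsxCre;Stat3fl/fl. Every library labelled OsxCre;Stat3fl/fl was lower than every OsxCre library. These levels rested on 9, 8 and 16 counts against 1, 2 and 2 counts, so the second group lay under the floor of 3 counts per library. Over the summed counts, 33 against 5, the OsxCre level was 5.08 times the other, with a 95% exact interval of 1.97 to 16.7 that covers counting error only. An exact permutation test of the 3 against 3 values gave p = 0.1 (two-sided), the smallest it can give. With the filter on low counts removed, edgeR's quasi-likelihood test gave *Lep* an unadjusted p of 0.00193 and an adjusted p of 0.0896. Among the 15600 genes tested, 12.2% had all libraries labelled OsxCre;Stat3fl/fl below all OsxCre libraries and 10.8% had all of them above. Finding 1 gene of 10 without overlap is thus near the share of all genes. These shares cover genes that passed the filter, which *Lep* did not. In bulk tissue, fewer cells of a type and less RNA per cell cannot be told apart.

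Because *Lep* was the one gene with separate groups and *Ucp1* the one with the widest spread, the 250 bases before the RefSeq start of each are shown, read from the GRCm38.p6 assembly. The *Lep* window is chr6:29059971-29060220 and the *Ucp1* window chr8:83290098-83290347, both on the plus strand and ending at the base before the start. Capitals mark a match to TTGCGCAA, a palindrome bound by C/EBP factors, in the first, and to AGGTCA, the core letters read by nuclear receptors such as PPARG, in the second.
Lep: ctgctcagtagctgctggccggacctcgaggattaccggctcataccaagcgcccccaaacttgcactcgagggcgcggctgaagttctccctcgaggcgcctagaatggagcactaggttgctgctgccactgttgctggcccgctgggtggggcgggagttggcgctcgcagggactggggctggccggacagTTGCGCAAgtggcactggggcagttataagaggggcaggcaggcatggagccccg
Ucp1: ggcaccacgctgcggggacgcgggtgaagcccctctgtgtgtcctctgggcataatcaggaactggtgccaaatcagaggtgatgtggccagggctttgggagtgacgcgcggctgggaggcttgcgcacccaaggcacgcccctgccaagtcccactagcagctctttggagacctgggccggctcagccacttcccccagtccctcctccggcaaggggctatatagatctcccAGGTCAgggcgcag
The match in *Lep* begins 55 bases before the start and that in *Ucp1* 14 bases before it. Windows were listed for 8 of the 10 genes, 11 windows in all, and *Fabp4* and *Lpl* had none. Both strands were searched, and no match in these windows overlapped another motif. TTGCGCAA was found in 0.164% of all 32851 windows and, among the 11, only in that of *Lep*. AGGTCA was found in 14% of all windows and in 3 of the 11, that of *Ucp1* and 2 of the 3 of *Pparg*. TTCNNNGAA, the palindrome read by STAT factors, was found in 7.02% of all windows and in 0 of the 11. A match describes the letters of the window only.

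The other secreted products overlapped between genotypes, unlike *Lep*. *Adipoq*, the most abundant adipokine of fat tissue, had 37.5, 44.2 and 98.4 CPM in the OsxCre libraries and 51.0, 73.7 and 79.2 CPM in those labelled OsxCre;Stat3fl/fl. The groups overlapped, and the means were 60.0 ± 33.4 and 68.0 ± 14.9 CPM (SD, n = 3 each). *Cfd*, a serine protease of the alternative complement pathway, had 17.1, 27.6 and 42.0 against 10.9, 30.2 and 47.9 CPM, with the lowest and the highest library of all 6 in the same genotype. *Retn* had 1.71, 1.69 and 0.839 against 0.721, 1.10 and 0.819 CPM, or 45 against 22 counts summed. Its OsxCre level was 1.58 times the other with a 95% exact counting interval of 0.926 to 2.75, and its edgeR adjusted p without the filter was 0.661. OsxCre library 3 had the highest *Lep* and *Adipoq* of all libraries and the lowest *Retn* of its genotype.

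Both droplet proteins were spread over a wider range than the difference between genotypes. *Plin1* had 18.7, 35.4 and 178 CPM in the OsxCre libraries and 29.9, 88.6 and 70.1 CPM in those labelled OsxCre;Stat3fl/fl, with means of 77.4 ± 87.7 and 62.9 ± 30.0 CPM (SD, n = 3 each). *Cidec*, which passes lipid between droplets so that they fuse, had 13.8, 14.9 and 122 against 20.9, 76.7 and 57.8 CPM. In both genes OsxCre library 3 was the highest and OsxCre library 1 the lowest of the 6, so 1 genotype held both ends of the range.

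The genes of fatty acid uptake and transport overlapped between genotypes too. *Lpl* had 512, 520 and 967 CPM in the OsxCre libraries and 443, 701 and 614 CPM in those labelled OsxCre;Stat3fl/fl. *Fabp4* had 442, 533 and 1504 against 711, 1513 and 1160 CPM, with means of 826 ± 589 and 1128 ± 402 CPM (SD, n = 3 each). OsxCre library 3 and OsxCre;Stat3fl/fl library 2 lay close together for *Fabp4* and stood above the other 4 libraries. *Pparg*, the regulator of the programme, had 9.23, 12.5 and 39.6 CPM against 16.9, 25.9 and 18.1 CPM, and its means of 20.4 ± 16.7 and 20.3 ± 4.9 CPM (SD, n = 3 each) lay close together.

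*Ucp1* varied most. It had 113, 284 and 1793 CPM in the OsxCre libraries and 137, 856 and 584 CPM in those labelled OsxCre;Stat3fl/fl, with means of 730 ± 924 and 526 ± 363 CPM (SD, n = 3 each). The SD of the OsxCre libraries exceeded their mean, and library 1 of each genotype was its lowest.

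In edgeR's quasi-likelihood test, 0 of the 8 genes tested passed an adjusted p of 0.05 in either direction, against a background of 0.481% of all genes lower and 0.776% higher in the libraries labelled OsxCre;Stat3fl/fl. None of the 8 had an unadjusted p under 0.05 either, where 16.4% of all genes did, and 0 of the 8 were called with DESeq2's Wald test or limma-voom. The log2 differences, labelled OsxCre;Stat3fl/fl minus OsxCre, were 0.45 for *Fabp4* (SE 0.47), 0.18 for *Adipoq* (SE 0.35), 0.04 for *Cfd* (SE 0.49), 0.03 for *Cidec* (SE 0.84), -0.02 for *Pparg* (SE 0.50), -0.19 for *Lpl* (SE 0.27), -0.31 for *Plin1* (SE 0.77) and -0.47 for *Ucp1* (SE 0.97). Their edgeR adjusted p-values lay between 0.695 and 0.992. There were 4 positive and 4 negative differences, with a median of 0.01 beside 0.00 over all genes tested. The SE of *Ucp1* was thus close to a 2-fold difference, which is 1 on this scale. With scaling by library totals *Cidec* and *Cfd* turned to -0.01 each, and with limma-voom *Plin1* (0.18), *Pparg* (0.22), *Cfd* (-0.12) and *Ucp1* (0.10) changed sign.

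Single libraries moved these differences, OsxCre library 3 most of all for every gene but *Cfd*. Without it the edgeR log2 difference was 1.41 for *Ucp1*, 1.85 for *Cidec*, 1.22 for *Plin1*, 1.21 for *Fabp4*, 0.90 for *Pparg*, 0.74 for *Adipoq*, 0.41 for *Cfd* and 0.18 for *Lpl*, all of them positive. *Ucp1*, *Plin1*, *Pparg* and *Lpl* thus changed direction, and the smallest edgeR adjusted p among the 8 was 0.152. *Cfd* went furthest without OsxCre;Stat3fl/fl library 3, to -0.49, and to 0.43 without library 1 of that genotype, a setting in which *Plin1* (0.03) and *Pparg* (0.10) also changed sign. Leaving out any other library also called none of the 8.

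The spread between libraries of 1 genotype was the main feature of these genes. The highest OsxCre library was at least 2 times the lowest in 7 of the 8 genes tested, where 9.68% of all genes were, and *Lpl* was the exception at 1.89. In the libraries labelled OsxCre;Stat3fl/fl the same held for 5 of the 8, where 10.8% of all genes did. OsxCre library 3 alone was at least 2 times OsxCre library 1 in those 7 genes, against 2.08% of all genes. This pair of libraries was picked with the levels of these genes known, so the share describes the pattern and does not test it. The ratio of the highest to the lowest OsxCre library was 15.8 for *Ucp1*, 9.55 for *Plin1*, 8.87 for *Cidec*, 4.29 for *Pparg*, 3.40 for *Fabp4*, 2.62 for *Adipoq* and 2.45 for *Cfd*. In the libraries labelled OsxCre;Stat3fl/fl it was 6.23 for *Ucp1*, 4.39 for *Cfd*, 3.67 for *Cidec*, 2.96 for *Plin1* and 2.13 for *Fabp4*. *Plin1*, *Cidec* and *Ucp1* were thus spread more widely than *Adipoq* and *Lpl* in both genotypes. All genes of a library share its RNA, so the 8 genes are not separate replicates of this spread.

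**Figure D2:**
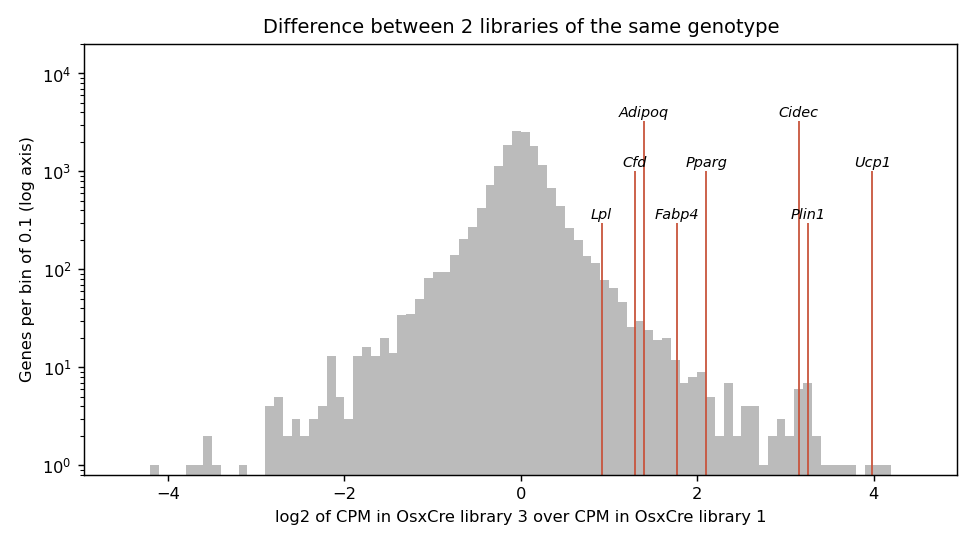
Histogram of the log2 ratio of OsxCre library 3 to OsxCre library 1 over the genes tested (genes per bin on a logarithmic vertical axis), with the 8 adipocyte genes tested marked. Most genes lie near 0, while 7 of the 8 lie beyond a ratio of 2, a line that 2.08% of all genes reached. This pair of libraries was picked with the levels of the 8 genes known.

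The libraries fell in nearly the same order for most of the 8 genes. OsxCre library 3 was the highest of all 6 for *Adipoq*, *Plin1*, *Cidec*, *Pparg*, *Lpl* and *Ucp1*, that is for 6 of 8, where 17.0% of all genes had it highest. OsxCre;Stat3fl/fl library 2 came second for 5 of these, where 4.63% of all genes had both places filled so. These places were read from the levels of the same genes, so the shares are no test of the order. For *Plin1* and *Ucp1* the full order was identical, and *Cidec* and *Pparg* shared another order that differed from it only in the exchange of OsxCre library 2 and OsxCre;Stat3fl/fl library 1. Library 1 was the lowest of the 3 labelled OsxCre;Stat3fl/fl in all 8 genes tested.

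**Figure D3:**
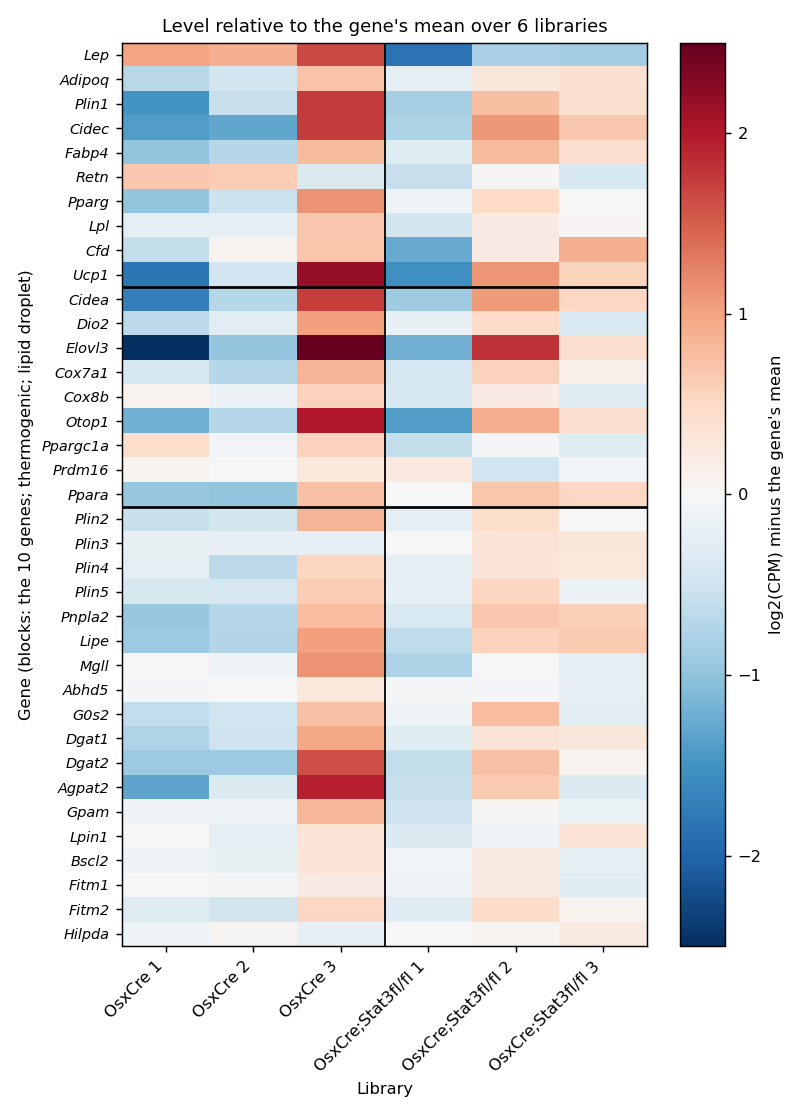
Heat map of the 10 adipocyte genes and of the tested thermogenic and lipid droplet genes (rows) in the 6 libraries (columns), as log2 CPM minus the mean of that gene over the 6 libraries, with the colour scale limited to 2.5 in each direction. The column of OsxCre library 3 is high for Ucp1, Plin1, Cidec and Adipoq, and among the 10 genes only Lep is below its mean in every library labelled OsxCre;Stat3fl/fl and above it in every OsxCre library.

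The genes did not keep a fixed ratio to one another. Counts of *Ucp1* were 3.02, 6.43 and 18.2 times those of *Adipoq* in the OsxCre libraries and 2.69, 11.6 and 7.38 times in those labelled OsxCre;Stat3fl/fl. Counts of *Plin1* were 0.497, 0.800 and 1.81 times those of *Adipoq* against 0.586, 1.20 and 0.885 times. For both genes the ratio was highest in OsxCre library 3, the library with the most *Adipoq*. The ratio of *Pparg* to *Adipoq* varied less, at 0.246, 0.283 and 0.403 against 0.332, 0.351 and 0.229. *Lep* per *Adipoq* was 0.0228, 0.0179 and 0.0137 in the OsxCre libraries and 0.00235, 0.00333 and 0.00295 in those labelled OsxCre;Stat3fl/fl, so the groups were separate on this scale too. The ratio reuses the same *Lep* counts, which lay under the floor of 3 in the second group, and is not further support.

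The wider programme was read from 6 lists of related genes, 83 genes in all, of which 77 were tested. By edgeR, 1 was called higher and 2 lower, or 3.90%, beside 0.776% higher and 0.481% lower over all genes. The lists were chosen with earlier results of these data known, so this share does not test them. An unadjusted p under 0.05 was found for 15, or 19.5%, close to the 16.4% of all genes. Their median log2 difference was 0.07. OsxCre library 3 was at least 2 times OsxCre library 1 in 24 of the 77, or 31.2%, beside 2.08% of all genes. As above, this pair was picked with levels known, and the share is a description only.

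Of 13 adipogenic regulators tested, *Cebpd* rose and 0 fell, with a list median of 0.19. *Cebpd*, an early C/EBP factor of adipogenesis that also responds to cytokines, had 25.0, 19.2 and 22.5 CPM in the OsxCre libraries and 47.1, 60.1 and 46.3 CPM in those labelled OsxCre;Stat3fl/fl. The groups did not overlap, and the log2 difference was 1.20 (SE 0.14, edgeR adjusted p = 0.0142), though without OsxCre;Stat3fl/fl library 3 the adjusted p was 0.0715. *Cebpa*, the late C/EBP factor that works with *Pparg*, had 23.9, 26.9 and 66.8 against 25.0, 52.6 and 59.4 CPM, a log2 difference of 0.21 (SE 0.44). The regulator *Klf15* had a log2 difference of 0.74 (SE 0.21) and an edgeR adjusted p of 0.142. *Ppara*, a regulator of fatty acid oxidation, had 20.1, 19.7 and 64.3 against 39.1, 62.9 and 55.6 CPM. Its log2 difference was 0.59 (SE 0.45), and edgeR called it higher only when OsxCre library 3 was left out. *Srebf1*, a regulator of fatty acid synthesis, ranged from 33.0 to 48.5 CPM over the 6 libraries. *Rxra*, the usual partner of *Pparg*, was listed at no more than 0.600 CPM in any library, and was looked at after its values were seen. It rested on 2 to 6 counts per library and did not pass the filter, and the cause of this low listing was not tested.

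Of 19 tested genes of droplet coats, storage and lipolysis, edgeR called 0, with 1 at an unadjusted p under 0.05, limma-voom called 0 and DESeq2's Wald test called 1, *Plin3*. The median log2 difference was -0.01, and OsxCre library 3 was at least 2 times OsxCre library 1 in 10. *Cidea*, the droplet protein of brown adipocytes, had 36.7, 73.4 and 401 CPM against 65.3, 253 and 174 CPM, in the same library order as *Ucp1* and *Plin1*, with a log2 difference of -0.06 (SE 0.83). *Pnpla2*, which starts the breakdown of stored triglyceride, had 117, 138 and 387 against 173, 364 and 344 CPM and a log2 difference of 0.45 (SE 0.47), which was 1.20 without OsxCre library 3 and 0.16 without OsxCre library 1. The droplet coat *Plin3*, made in most cells, stayed within 84.2 and 84.7 CPM in the OsxCre libraries and had 96.3, 121 and 118 CPM in the others, without overlap and with an adjusted p of 0.0998 in edgeR and 0.0266 in DESeq2. The ranges over all libraries were 109 to 249 CPM for the coat protein *Plin4* and 75.3 to 282 CPM for the monoglyceride lipase *Mgll*.

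Of 17 tested genes of fatty acid uptake, synthesis and glycerol handling, *Fabp3* fell and 0 rose, with a median of 0.02. *Fabp3*, the fatty acid binding protein of heart and skeletal muscle, also present in brown fat, had 468, 464 and 565 CPM in the OsxCre libraries and 197, 213 and 185 CPM in those labelled OsxCre;Stat3fl/fl. The groups were far apart, with a log2 difference of -1.33 (SE 0.11, edgeR adjusted p = 0.00363). Its relative *Fabp4* did not pass the test, as given above, and *Fabp5*, the form of skin and macrophages, ranged from 80.8 to 98.1 CPM. *Gpd1*, which makes the glycerol backbone of triglyceride, had 161, 215 and 658 against 290, 782 and 566 CPM and a log2 difference of 0.66 (SE 0.55), which was 1.54 without OsxCre library 3 and 0.32 without OsxCre library 1 or OsxCre;Stat3fl/fl library 2. The fatty acid transporter *Cd36* ranged from 205 to 506 CPM. *Pck1*, the enzyme that supplies glycerol in fat, had 41.5, 83.5 and 491 against 56.3, 193 and 131 CPM, and was named after its values were seen.

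Of 13 tested genes for other adipokines and adipokine receptors, *Apln* fell and 0 rose in edgeR, with a median of 0.25, while DESeq2's Wald test called *Apln* lower and *Rbp4*, *Car3* and *Slc2a4* higher, and edgeR without the filter also called *Rbp4*. *Apln*, the peptide apelin, which endothelial cells make as well as fat, had 33.0, 20.6 and 44.4 CPM against 9.37, 9.81 and 6.55 CPM. The groups did not overlap, and the log2 difference was -1.93 (SE 0.29, edgeR adjusted p = 0.0279). That call was lost with limma-voom (adjusted p = 0.0627), without OsxCre library 1 (0.0993) and without OsxCre;Stat3fl/fl library 1 (0.0830), 2 (0.0661) or 3 (0.151). *Lepr*, the leptin receptor, had 35.9, 31.8 and 29.1 CPM against 37.1, 40.9 and 42.5 CPM, with every library labelled OsxCre;Stat3fl/fl above every OsxCre library, a log2 difference of 0.32 (SE 0.11) and an edgeR adjusted p of 0.194. It was described because it binds leptin, after its values were seen. The secreted enzyme *Nampt* had a log2 difference of 1.12 (SE 0.27, edgeR adjusted p = 0.105). It rested on low counts, 18, 15 and 23 in the OsxCre libraries against 23, 34 and 37 in the others. The ranges were 572 to 896 CPM for *Car3*, a carbonic anhydrase of fat and muscle, 138 to 246 CPM for the insulin-responsive glucose transporter *Slc2a4*, and 144 to 173 CPM for the adiponectin receptor *Adipor1*.

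Of 9 tested thermogenic genes, edgeR, DESeq2 and limma-voom each called 0, with 1 at an unadjusted p under 0.05 in edgeR, and the median was -0.22. Without OsxCre library 3, edgeR called *Ppara*, which is also in this list, higher. OsxCre library 3 was the highest of the 6 libraries in all 9, and at least 2 times OsxCre library 1 in 6. *Elovl3* and *Otop1*, marker genes of brown fat named after their values were seen, had 0.381, 1.69 and 27.4 against 1.44, 11.5 and 4.44 CPM and 2.76, 3.87 and 25.4 against 2.40, 11.9 and 8.30 CPM. *Ppargc1a*, the coactivator of mitochondrial genes that muscle also makes, had a log2 difference of -0.63 (SE 0.20, edgeR adjusted p = 0.170). *Cox8b* and *Cox7a1*, cytochrome oxidase subunits of brown fat and muscle, ranged from 101 to 200 and from 43.5 to 129 CPM.

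The 10 tested genes of adipose progenitors did not show the spread of the mature genes. OsxCre library 3 was at least 2 times OsxCre library 1 in 0 of the 10, and the median was 0.22. For this list edgeR called 0, with 2 at an unadjusted p under 0.05, limma-voom called 0, and *Pdgfra* was called by DESeq2's Wald test (adjusted p = 0.0291) and by edgeR without the filter (0.0496). *Dlk1*, the preadipocyte factor that is lost as fat cells mature, had 1101, 1144 and 1287 CPM against 1207, 1677 and 1301 CPM and a log2 difference of 0.24 (SE 0.14). *Pdgfra*, a receptor on progenitors, had 22.4, 14.8 and 14.9 against 22.6, 31.4 and 35.9 CPM, without overlap, a log2 difference of 0.79 (SE 0.22) and, with the filter, an edgeR adjusted p of 0.139. *Pdgfrb*, *Cd34* and *Cxcl12* ranged from 166 to 245, from 298 to 398 and from 166 to 244 CPM. These genes are also made by bone marrow stroma, vessels and periosteum.

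**Figure D4:**
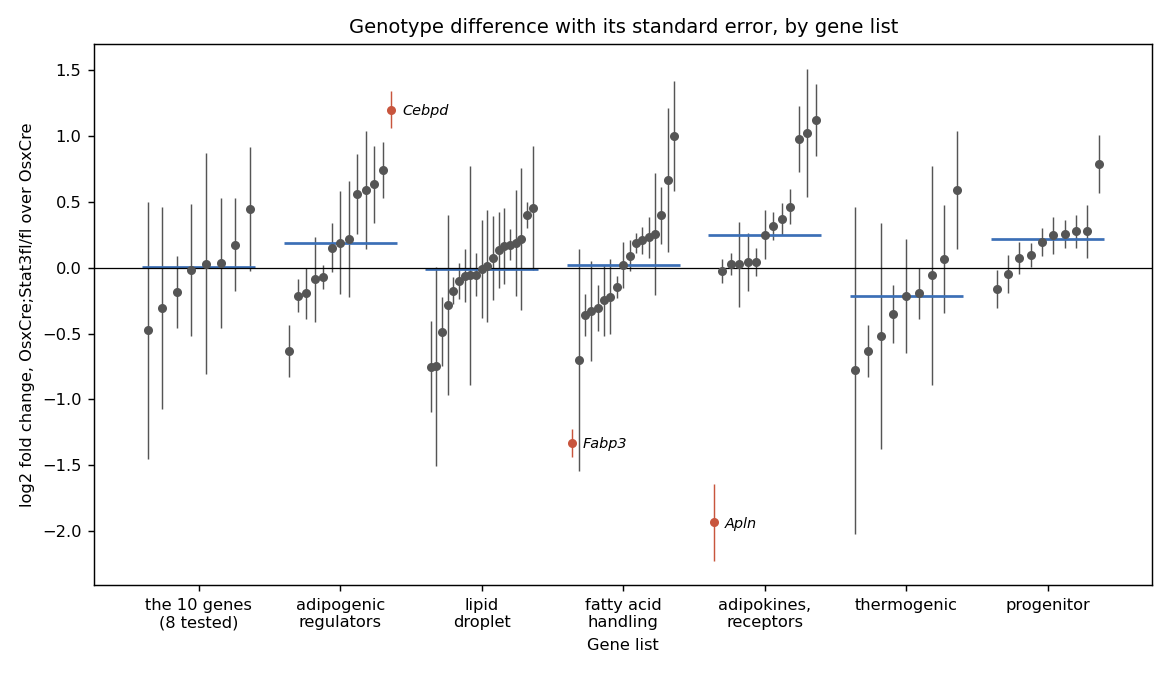
Log2 difference between libraries labelled OsxCre;Stat3fl/fl and OsxCre (vertical axis, above 0 is higher in the former) with its SE as a bar, for each tested gene of the 10 adipocyte genes and the 6 related lists; blue lines are list medians and red marks an edgeR adjusted p under 0.05. Only Cebpd (1.20), Fabp3 (-1.33) and Apln (-1.93) are red, and the bars are wide for genes such as Ucp1 (SE 0.97), Cidec (0.84) and Cidea (0.83).

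The genes whose pattern over the 6 libraries was most like that of *Adipoq* were sought among 12086 genes with a mean of at least 50 counts. By the root mean square difference of log2 CPM, each gene centred on its own mean, they were *Hacl1* at 0.0992, *Dgat1* at 0.124, *Apmap* at 0.130, *Tkt* at 0.151 and *Fam213a* at 0.154. *Dgat1* makes triglyceride from diglyceride and *Tkt* is a transketolase of the pentose phosphate pathway. *Dgat1* had 42.9, 50.6 and 141 CPM in the OsxCre libraries and 59.0, 90.2 and 87.6 CPM in the others, which follows the order of *Adipoq* apart from the exchange of OsxCre;Stat3fl/fl libraries 2 and 3. Nearest to *Ucp1*, a search added after the values were seen, were *Ces1d* at 0.276, *Otop1* at 0.300, *Pck1* at 0.327, *Cidea* at 0.337 and *Plin1* at 0.395.

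Markers of other cell types were read beside these results. The summed CPM of 13 skeletal muscle genes, led by *Acta1* and *Mylpf*, ranged from 28277 to 30773 in the OsxCre libraries and from 33204 to 49271 in those labelled OsxCre;Stat3fl/fl, without overlap. At an unadjusted p under 0.05, 8 of the 13 were higher and 1 lower, beside 16.4% of all genes in either direction. DESeq2's Wald test called 7 higher and 1 lower. By edgeR 1 was called higher and 1 lower, beside 0.776% and 0.481% of all genes. The embryonic myosin *Myh3* was called higher (log2 difference 1.71, edgeR adjusted p = 0.0204) and the fast myosin *Myh4* lower (-3.61, adjusted p = 3.87e-05), both named after their values were seen. The *Myh3* call was lost without OsxCre library 1 or 2, or without OsxCre;Stat3fl/fl library 1 or 3. That of *Myh4* stayed when any single library was left out. Of 7 neutrophil genes tested, 6 had an unadjusted p under 0.05 and lower levels, beside 16.4% of all genes in either direction. By edgeR, 2 were called lower, beside 0.481% of all genes, and by DESeq2's Wald test 5. The edgeR call of *S100a9* was lost when any single library was left out. That of *Retnlg*, named after its values were seen, was lost without OsxCre;Stat3fl/fl library 1 or 3. The sum over the list of 8, led by *S100a9* and *S100a8*, ranged from 305 to 516 against 126 to 208 CPM. The sum of 9 macrophage genes, led by *C1qb* and *C1qc*, ranged from 414 to 444 against 503 to 539 CPM, with *C1qb* called higher by edgeR. The *C1qb* call was lost when any single library was left out. These 3 sums separated the genotypes, as *Lep*, *Cebpd*, *Fabp3* and *Apln* did, and their part in those results was not tested.

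Within a genotype the same sums moved less than the sum of the 10 adipocyte genes, though not less than each of these genes. The sum of the 10 was 1166, 1473 and 4746 CPM in the OsxCre libraries and 1422, 3366 and 2632 CPM in the others. *Ucp1* made up most of it together with *Fabp4* and *Lpl*, which other cells also make. Over the same libraries, the muscle sum was highest in OsxCre;Stat3fl/fl library 2 and the neutrophil sum in OsxCre library 3. The sum of 9 endothelial genes, led by *Pecam1* and *Cdh5*, ranged from 713 to 1001 against 868 to 995 CPM and was also highest in OsxCre library 3. The sum of 9 osteoblast genes, led by *Col1a1* and *Spp1*, ranged from 14328 to 19312 against 13312 to 16942 CPM. Of these 9, 7 had a negative log2 difference, with a median of -0.19, and *Ibsp*, a matrix protein of mineralising bone named after its values were seen, was called lower (-0.66, edgeR adjusted p = 0.0213). By edgeR 1 of the 9 was thus called lower, beside 0.481% of all genes. DESeq2's Wald test and edgeR without the filter also called the osteoblast gene *Alpl* lower, as did edgeR without OsxCre library 3. The *Ibsp* call was lost without OsxCre library 1 or 2, or without OsxCre;Stat3fl/fl library 1 or 3. The part of these marker sums in the spread was not tested. Skin genes were low, since the sum of 7 keratinocyte genes, led by *Krt10* and *Lor*, stayed between 4.66 and 8.65 CPM in all libraries and 2 of the 7 passed the filter. No gene of the 6 marker lists was at 0 in all libraries.

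**Figure D5:**
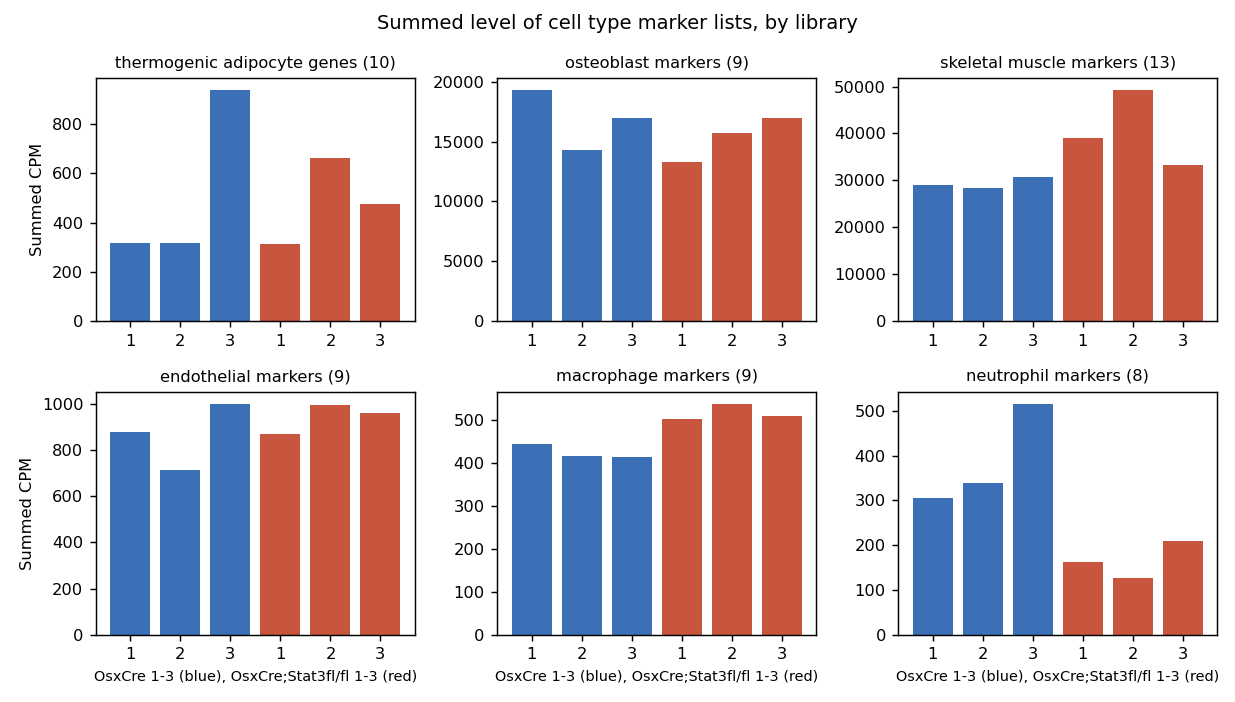
Summed CPM of the thermogenic adipocyte genes and of marker lists of 5 other cell types as bars by library, with each panel on its own linear axis that starts at 0. The thermogenic sum, which leaves out Ucp1, is highest in OsxCre library 3 (939 CPM) and OsxCre;Stat3fl/fl library 2 (661 CPM), while the muscle sum reaches 33204 CPM or more only in libraries labelled OsxCre;Stat3fl/fl.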

How the data were processed

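Polyadenylated RNA, as labelled (the study's text says total RNA), was extracted from parietal bone with Trizol and made into TruSeq libraries. The authors deposited whole-number counts per gene symbol, without normalization, for 3 libraries of each genotype. The submitters' processing notes name HISAT2 and GRCm38, whereas the study's methods name TopHat, mm9 and FPKM values; the counting program, its annotation and its use of strand are not given in the sources used here.

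Low counts were removed by filterByExpr (at least 10 counts, total at least 15), libraries scaled by TMM (factors 0.932 to 1.04), and genotypes compared, two-sided, with edgeR 4.0.16 quasi-likelihood tests in R 4.3.3, with Benjamini-Hochberg adjustment over 15600 genes. The SE of a log2 difference was taken from the F statistic, as the difference over its root. Called means an adjusted p under 0.05. Single values of genes that did not pass the filter were compared by an exact permutation test (smallest p 0.1), and their summed counts by an exact conditional interval. In simulated counts, the test recovered 56.9% of genes changed 2-fold, among 15407 genes tested. Pairs of libraries within a genotype differed beyond sampling noise (chi-square per degree of freedom 7.51 to 15.6). The study's methods give 3 mice per genotype, but the labels tie no library to an animal, so p-values measure the spread between these libraries, which may be technical. Counting intervals and floors cover counting error only.

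Exon lengths came from GENCODE vM1 (mm9), so values per kilobase are approximate for counts made with another annotation. Promoter windows came from RefSeq (GRCm38.p6). Reads of overlapping or antisense genes could not be told apart.

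The members and gene lists were chosen with earlier results of these data known. Named were all members, *Stat3*, in each related list every called gene, the 3 of highest mean CPM and the 2 of smallest p, the 5 genes most like *Adipoq*, and the 2 highest of each marker list. *Adgre1* was read under its synonym *Emr1*. The alternatives were other scalings, no filter, DESeq2 1.42.0, limma-voom (limma 3.58.1), the replicate number as a block, and leaving out each library. Plots used matplotlib 3.10.9.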

Additional observations from a re-analysis of the deposited data

How the results depend on the processing

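None of the 8 adipocyte genes tested was called under any of the 13 alternatives. The direction of several was not fixed. With limma-voom the log2 difference was 0.18 for *Plin1*, 0.22 for *Pparg*, -0.12 for *Cfd*, 0.10 for *Ucp1* and 0.47 for *Cidea*. With library totals it was -0.01 for *Cidec* and -0.01 for *Cfd*. Leaving out one library at a time, it ranged from -0.07 to 0.74 for *Adipoq*, -0.77 to 1.22 for *Plin1*, -0.41 to 1.85 for *Cidec*, -0.36 to 0.90 for *Pparg*, -0.34 to 0.18 for *Lpl*, -0.49 to 0.43 for *Cfd*, -1.01 to 1.41 for *Ucp1*, -0.53 to 1.58 for *Cidea* and -0.04 to 0.85 for *Cebpa*. Over all genes, where 121 were called higher and 75 lower, library totals gave 114 lower, no filter gave 250 higher and 178 lower, DESeq2 gave 307 and 231, and leaving out one library gave 7 to 67 higher and 5 to 36 lower. The cause was not tested, beyond the fewer samples or added genes of the last settings.

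The replicate numbers did not pair the libraries: deviations of same-numbered libraries from their group means correlated at -0.101, -0.518 and -0.085, and 0 of the 6 correlated best with their own number. With the replicate block, 0 genes were called higher and 1 lower. The log2 differences were then 0.20 for *Plin1*, 0.25 for *Pparg*, -0.08 for *Cfd*, 0.10 for *Ucp1* and 0.47 for *Cidea*, and the adjusted p-values 0.0979 for *Cebpd*, 0.0597 for *Fabp3* and 0.140 for *Apln*.

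Depth limits *Lep* and *Retn*, which had at most 18 counts in a library, and any change of *Lep* below the floor of 3 counts could not be measured.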
